A study of Mus musculus with 48 samples.

Results

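The epithelium of the choroid plexus was followed through 10 of its marker genes in hippocampal RNA of mice. The markers were Ttr, Folr1, Otx2, Kcnj13, Kl, Clic6, Aqp1, Slc4a5, Prlr and Calml4, 10 of the 48440 genes in the deposited count table, and each was found there once by its gene name. They are known markers of this epithelium that were chosen by their levels in these same libraries, so that their joint variation between libraries is given as a description and not as a test. All 10 had at least 1 read in every one of the 48 libraries, and all 10 passed the filter of at least 5 reads in at least 3 libraries, which 31208 genes passed.

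The libraries came from female C57BL/6 offspring aged 3 months, 1 animal to a library, with the hippocampi of both sides merged. Dams of the stressed offspring had been restrained 3 times daily, starting on embryonic day 13 and ending on day 17, and the dams of controls (C) had not. Stressed offspring were divided by their sociability into socially affected (SA, labelled as susceptible) and socially unaffected (SU, labelled as resilient) animals. Each of these is labelled 5-Htt+/+ (8 C, 8 SA and 8 SU libraries) or 5-Htt+/-, with 1 disrupted copy of the serotonin transporter gene (7 C, 8 SA and 9 SU libraries). The mice had gone through behavioural tests and an acute restraint with blood sampling before the tissue was taken, controls included. Litters are not given in the labels, while the paper used wildtype littermates and limited the female pups taken per genotype from a litter. Littermates within a group would make p-values too small. Littermates on both sides of a comparison could make them too large.

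Total counts ranged from 16488405 to 38213754 per library (median 24125647.5), and mitochondrial genes took 3.43% to 5.95% of them. Slc6a4, the gene of the serotonin transporter, was at 12.8 to 17.0 CPM (counts scaled to a common library size) in the 24 libraries labelled 5-Htt+/- and at 0 to 0.261 CPM in the 24 labelled 5-Htt+/+. It thus separated the libraries by their labels, with more reads in those labelled as carrying the disrupted copy, and genotypes are named here as the labels give them. All levels below are CPM of library sizes scaled by the upper quartile.

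The choroid plexus hangs in the ventricles of the brain, and in the lateral ventricle it lies along the fimbria of the hippocampus. Its epithelium is a single cell layer that secretes cerebrospinal fluid through apical ion transporters and water channels, and it releases carrier proteins and passes vitamins into that fluid. It is not part of the hippocampus, so that its transcripts in hippocampal RNA depend on what tissue was taken as well as on what its cells express. In bulk RNA, fewer cells of a type and less RNA per cell cannot be told apart.

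RefSeq promoter windows of 300 bases (250 before and 50 after a start site, GRCm38.p6) were given for 7 of the 10 genes, in 12 windows. Of these, 3 are shown as examples, each with other letters marked. The window of Otx2 shown, which is not the only one of that gene, holds the only match among the 12 to TAATCC, a core of the motif bound by OTX-type homeodomain factors. It is written in the direction of the gene as its reverse complement GGATTA (capitals). Kcnj13 has TATAAA, the letters of a TATA box (capitals). In the window of Kl every CG dinucleotide is in capitals.
Otx2, chr14:48665060-48665359, minus strand: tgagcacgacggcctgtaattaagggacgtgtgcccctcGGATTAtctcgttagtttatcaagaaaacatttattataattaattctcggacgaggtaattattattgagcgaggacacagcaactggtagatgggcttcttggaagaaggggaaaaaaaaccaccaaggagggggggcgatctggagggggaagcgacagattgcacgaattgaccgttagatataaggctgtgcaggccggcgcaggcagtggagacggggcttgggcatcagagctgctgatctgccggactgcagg
Kcnj13, chr1:87394680-87394979, minus strand: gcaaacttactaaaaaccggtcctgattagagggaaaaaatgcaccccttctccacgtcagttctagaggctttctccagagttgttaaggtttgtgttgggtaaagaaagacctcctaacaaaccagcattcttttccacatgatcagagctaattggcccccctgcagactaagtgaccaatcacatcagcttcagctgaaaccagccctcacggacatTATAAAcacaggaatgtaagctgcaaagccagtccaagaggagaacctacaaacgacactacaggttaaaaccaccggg
Kl, chr5:150952357-150952656, plus strand: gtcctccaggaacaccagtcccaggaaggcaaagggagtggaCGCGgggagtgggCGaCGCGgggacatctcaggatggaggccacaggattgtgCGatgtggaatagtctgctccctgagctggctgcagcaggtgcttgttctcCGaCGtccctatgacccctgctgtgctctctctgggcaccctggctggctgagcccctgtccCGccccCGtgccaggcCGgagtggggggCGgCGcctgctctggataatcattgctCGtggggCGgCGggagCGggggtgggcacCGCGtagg
On either strand, TAATCC was present in 7.06% of 32817 promoter windows and in 1 of the 12 windows of these genes. TATAAA, which shares no bases with the other match in the windows shown, was present in 13.6% of all windows and in 3 of the 12, those of Kcnj13, Otx2 and Slc4a5. In Kcnj13 its first base lies 29 bases before the annotated start, and in Otx2 it lies in another window than the one shown. The Kl window has 19 CG dinucleotides and that of Kcnj13 has 5. These matches describe the letters only.

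Ttr encodes transthyretin, the carrier of thyroxine and of retinol-binding protein in blood and cerebrospinal fluid and the leading secreted product of the choroid plexus epithelium. The gene (ENSMUSG00000061808.3) lies on chromosome 18 of GRCm38 from 20665250 to 20674324 on the plus strand. Its level fell into 2 separate ranges: 28 libraries held 4.93 to 34.8 CPM and the other 20 held 226 to 788 CPM, with no library between 34.8 and 226. In reads, the lowest library had 94 and the highest 24144.

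Both ranges occurred in every group. Ttr was above 100 CPM in 3 of 8 C 5-Htt+/+, 5 of 8 SA 5-Htt+/+ and 2 of 8 SU 5-Htt+/+ libraries. Among those labelled 5-Htt+/- it was above 100 CPM in 1 of 7 C, 3 of 8 SA and 6 of 9 SU libraries. The single C 5-Htt+/- library in the upper range, replicate 5, was at 575 CPM, and the next highest of that group was at 25.0.

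C 5-Htt+/+ libraries ranged from 9.33 to 643 CPM of Ttr with a median of 19.0. SA 5-Htt+/+ libraries ranged from 5.59 to 788 (median 349) and SU 5-Htt+/+ libraries from 4.93 to 715 (median 9.81). The 3 groups overlapped over nearly their whole range, and the higher median of SA libraries goes with 5 rather than 2 or 3 libraries in the upper range. For 5-Htt+/-, C libraries ranged from 5.99 to 575 CPM (median 24.4), SA libraries from 9.42 to 617 (median 17.1) and SU libraries from 5.64 to 772 (median 226). Here too all groups overlapped, and the group means carried SDs of 210 to 288 CPM.

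**Figure D1:**
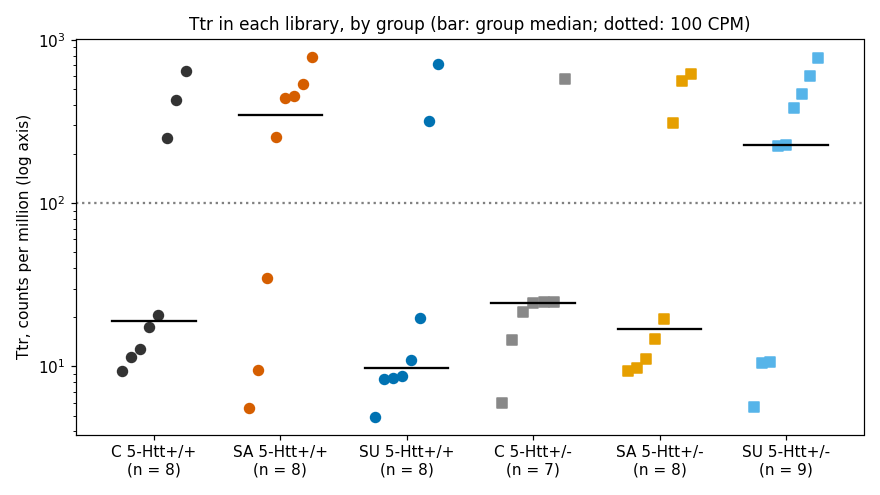
Ttr in each of the 48 libraries by group, in CPM on a log axis. Each point is 1 library, bars are group medians and the dotted line is at 100 CPM. No library lies between 34.8 and 226 CPM, and each group has libraries on both sides.

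The other secreted, carried or signalling products followed Ttr. Folr1 encodes folate receptor alpha, which brings folate across the epithelium into the cerebrospinal fluid, and lies on chromosome 7 (101858331 to 101870788, minus strand). It was at 0.0524 to 0.576 CPM in the 28 libraries of low Ttr and at 1.43 to 7.26 CPM in the 20 of high Ttr, with 1 to 166 reads over all libraries. Its group medians were 0.460, 1.96 and 0.340 CPM in C, SA and SU 5-Htt+/+ libraries. In those labelled 5-Htt+/- they were 0.477, 0.264 and 1.65 CPM, the same order of groups as for Ttr.

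Kl encodes klotho, the co-receptor of FGF23 that is also shed into the cerebrospinal fluid (chromosome 5, 150952607 to 150993817, plus strand). Of the 10 genes it had the narrowest spread between libraries. Its CPM was 13.8 to 20.9 in the 28 libraries of low Ttr and 26.0 to 62.7 in the 20 of high Ttr. The group medians of Kl were 19.7 CPM in C, 29.5 in SA and 16.7 in SU 5-Htt+/+ libraries, and 14.9, 18.2 and 27.6 CPM in C, SA and SU 5-Htt+/- libraries. Within the 20 libraries of high Ttr a straight line through Kl against Ttr rose by 5.05 CPM of Kl for each 100 CPM of Ttr and met the axis at 13.8 CPM of Kl. That intercept is close to the lowest level of Kl in the libraries of low Ttr.

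Prlr, the prolactin receptor (chromosome 15, 10177238 to 10349180, plus strand), was the member that followed Ttr least closely. It was at 1.25 to 6.37 CPM in the libraries of low Ttr and at 6.20 to 36.5 CPM in those of high Ttr, so that the ranges met. Its highest value, in SA 5-Htt+/+ replicate 8, was in the library that also had the most Ttr. Group medians of Prlr were 5.34, 9.11 and 3.57 CPM in C, SA and SU 5-Htt+/+ and 4.11, 4.29 and 7.70 CPM in C, SA and SU 5-Htt+/- libraries.

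Among the transport proteins, Aqp1 encodes the apical water channel aquaporin 1 (chromosome 6, 55336432 to 55348555, plus strand). It was at 0.105 to 0.658 CPM in the 28 libraries of low Ttr and at 1.32 to 4.93 CPM in the 20 of high Ttr. Slc4a5, a sodium bicarbonate cotransporter of the apical membrane (chromosome 6, 83219828 to 83304945, plus strand), was at 0.193 to 0.959 CPM and at 2.40 to 9.61 CPM. In both genes each library of high Ttr exceeded each library of low Ttr.

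Kcnj13 encodes the inwardly rectifying potassium channel Kir7.1 (chromosome 1, 87386363 to 87394729, minus strand). It was at 0.914 to 3.53 CPM and at 3.42 to 12.3 CPM in the 2 sets of libraries, and 1 library of low Ttr reached into the upper range. Clic6, of the family of intracellular chloride channels (chromosome 16, 92485736 to 92541243, plus strand), was at 1.10 to 3.97 CPM and at 8.66 to 28.1 CPM. Its ranges were apart, with no library between 3.97 and 8.66 CPM.

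Otx2, the homeodomain factor that the choroid plexus needs to form (chromosome 14, 48657679 to 48667644, minus strand), was at 0.216 to 1.92 CPM in the 28 libraries and at 2.01 to 7.38 CPM in the 20. The 2 ranges of Otx2 almost touched: the library of low Ttr with 1.92 CPM of Otx2 was SA 5-Htt+/+ replicate 5, which also had the highest Ttr of that set, 34.8 CPM. Calml4, a calmodulin-like protein of the brush border (chromosome 9, 62858104 to 62875918, plus strand), was at 0.340 to 1.65 CPM and at 1.39 to 4.60 CPM. For Calml4, 1 library of low Ttr reached the upper range and 2 libraries of high Ttr lay within the lower one.

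For 7 of the 10 genes, all but Kcnj13, Prlr and Calml4, every library of high Ttr was above every library of low Ttr. Over all 31208 genes this held for 21 (0.0673%), and the reverse, every library of high Ttr lower, held for 0. Since Ttr itself set the ranges and the members were picked for following it, the 7 are given as a description.

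**Figure D2:**
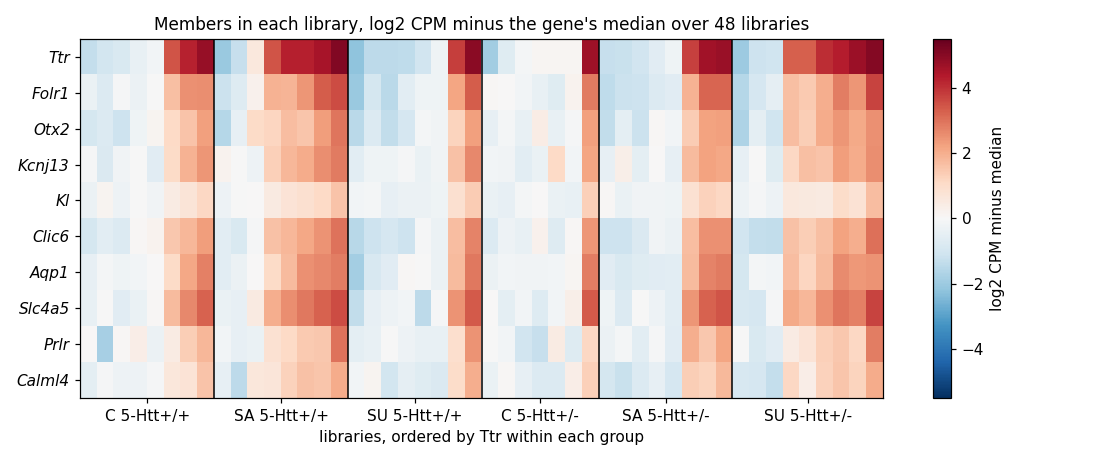
The 10 genes (rows) in the 48 libraries (columns, ordered by Ttr within each group), as log2 CPM with a prior count of 2 minus the median of the gene over all libraries. The 20 libraries of high Ttr lie above the median in all 10 genes and occur in each of the 6 groups. In Kl, Prlr and Calml4 some of them lie only a little above it. The contrast is widest for Ttr and narrowest for Kl.

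Summed over the 10 genes, the libraries ranged from 28.9 to 953 CPM with a median of 50.6. Ttr took 17.0% of this sum in the library of the lowest sum, SU 5-Htt+/+ replicate 4, and 82.7% in that of the highest, SA 5-Htt+/+ replicate 8. The 20 libraries of highest sum were the 20 of high Ttr, which follows from Ttr being part of the sum. The lowest Ttr among them, 226 CPM, exceeded the highest sum of the other libraries, 67.8 CPM.

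Set per kilobase of exon (the union of the exons in GENCODE M21), Ttr had the highest median level of the 10 genes, 19.4 CPM per kb over 48 libraries, and exceeded Kl per kb in all 48. Kl followed with 2.04 CPM per kb and Kcnj13 with 1.28, an order that held in 26 of the 28 libraries of low Ttr and in 2 of the 20 of high Ttr. Clic6 stood next with 0.856 CPM per kb, below Kcnj13 in 46 libraries and above Prlr in all 48. The remaining genes had medians from 0.115 CPM per kb (Slc4a5) to 0.298 (Prlr). Among these, neighbours in the order of CPM per kb were above one another in 16 to 41 of 48 libraries, and their order thus changed between libraries. It also went with the ranges of Ttr: per kb, Prlr was above Folr1 in 23 of the 28 libraries of low Ttr and in 1 of the 20 of high Ttr.

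Within the 20 libraries of high Ttr the members rose and fell together, though not in fixed proportion. Pearson's r of log2 CPM between members was positive in 45 of 45 pairs, with a median of 0.861, from 0.676 for Aqp1 with Prlr to 0.967 for Folr1 with Clic6. These values are descriptions, as the members were chosen for varying together and share their libraries. Against Ttr, Slc4a5 had the highest r (0.951) and Prlr the lowest (0.797). On the CPM scale, straight lines were drawn against Ttr, each with its own intercept. For each 100 CPM of Ttr these lines rose by 2.94 CPM in Clic6, 1.22 in Kcnj13, 1.14 in Slc4a5, 0.862 in Folr1 and 0.612 in Aqp1. Kl spanned 2.41-fold from the lowest to the highest of these libraries, Ttr 3.49-fold and Prlr 5.89-fold. As plain ratios per 100 CPM of Ttr, the library of lowest Ttr in this set had 12.6 CPM of Kl and 2.78 CPM of Prlr. That of highest Ttr had 7.21 CPM of Kl and 4.63 CPM of Prlr.

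Within the 28 libraries of low Ttr the picture was mixed. The median r over the 45 pairs was 0.188, 32 pairs were positive and 11 exceeded 0.5. Otx2 with Ttr had the highest value of log2 CPM correlation, 0.807, and Clic6 with Ttr (0.730) and Folr1 with Ttr (0.663) also moved together. Kl and Prlr had r = -0.536 with each other, the lowest of the pairs. Kcnj13 had r = 0.0987, Kl 0.188 and Prlr -0.157 with Ttr. In these libraries several members rest on few reads, as few as 1 for Folr1, 2 for Aqp1, 4 for Slc4a5 and 5 for Otx2.

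**Figure D3:**
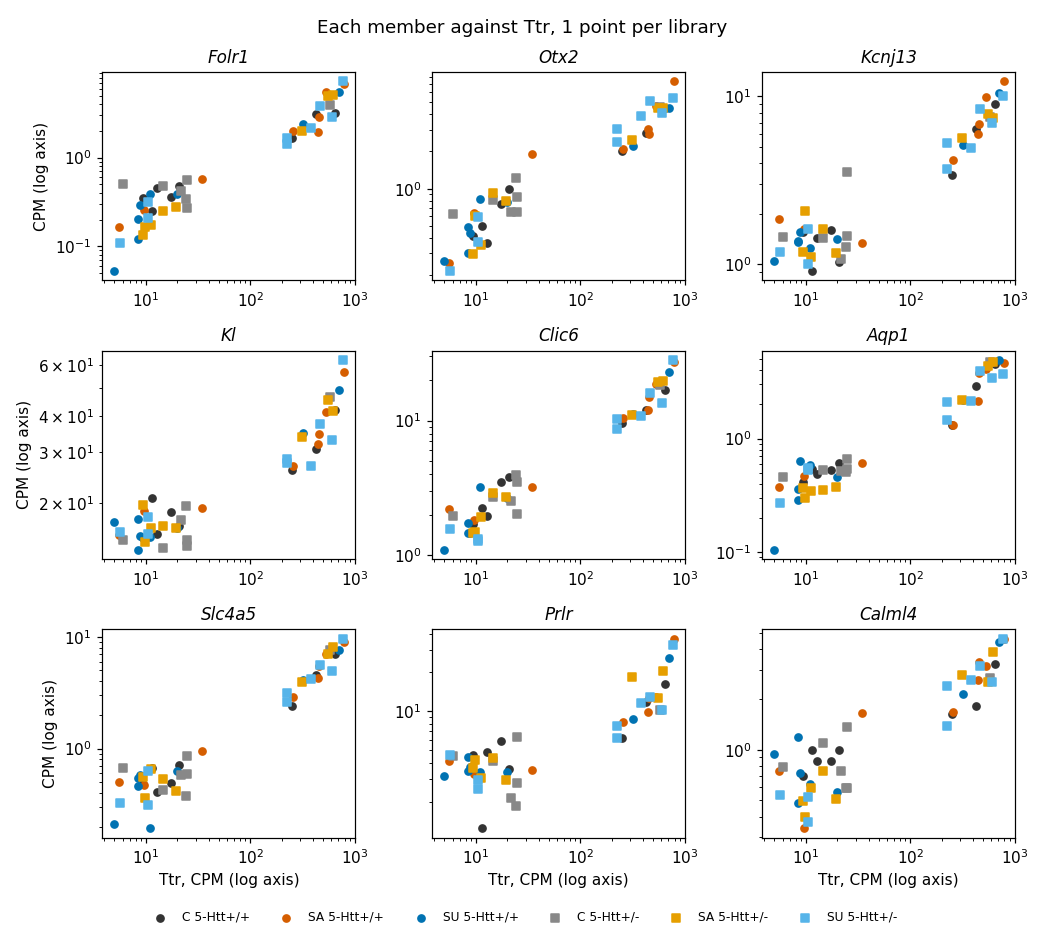
Each of the other 9 members (CPM, log axis) against Ttr (CPM, log axis), 1 point per library with the colour and shape of its group. The 20 points at right, 226 to 788 CPM of Ttr, rise together in all 9 panels, and the 28 at left are flat for Kl, Kcnj13 and Prlr.

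The comparison of stressed with control offspring asks whether the level of these genes followed prenatal stress and its social outcome. For none of the 10 genes was a difference called in any of 10 contrasts by the quasi-likelihood test of edgeR with Benjamini-Hochberg adjustment over 31208 genes. Of the 100 values, 1 had an unadjusted p under 0.05 and a 95% interval that left out 0. The likelihood ratio test of edgeR and DESeq2 also called 0 members, each with 2 values at an unadjusted p under 0.05. In the comparisons of 2 groups the standard errors of log2 fold changes ran from 0.30 for Kl to 1.16 for Ttr.

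In SA against C 5-Htt+/+ libraries, all 10 genes had positive log2 fold changes, with a median of 0.76 (0.40 for Kl to 0.99 for Folr1), where the median over all genes tested was -0.0017. Ttr had a log2 fold change of 0.85 ± 1.11 (SE), with a 95% interval from -1.38 to 3.08. The members called were 0, where 0.0128% of all genes were called and 3.07% had an unadjusted p under 0.05. The smallest unadjusted p of a member was 0.167, of Kcnj13 (edgeR). Without C 5-Htt+/+ replicate 4, at 643 CPM of Ttr, 3 members had an unadjusted p under 0.05 and 0 were called. As the members vary together, these 3 are not separate observations, and the share of all genes at such a p is not given for that fit.

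In SU against C 5-Htt+/+ libraries, 9 of the 10 fold changes were negative and that of Prlr was 0.03, with a median of -0.15. Ttr was at -0.35 ± 1.11 (interval -2.58 to 1.88) and Kl at -0.04 ± 0.31. Of all genes 0.0192% were called, 3.37% had an unadjusted p under 0.05, and the members held 0 of either kind.

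SA and SU 5-Htt+/+ libraries were also set against each other. The fold changes of all 10 members were positive, with a median of 0.91, from 0.44 for Kl to 1.20 for Ttr. Otx2 had the smallest unadjusted p, 0.0695 in edgeR, with a log2 fold change of 1.17 ± 0.63. The shares over all genes were 0% called and 3.9% at an unadjusted p under 0.05, and none of the members was in either. Without SU 5-Htt+/+ replicate 5, at 715 CPM of Ttr, 10 of 10 members had an unadjusted p under 0.05 and 0 were called. As the members vary together, the 10 count as 1 departure. With 1 library left out, the share of all genes at such a p is not given. The median of the members with 1 library left out ran from 0.60 to 1.75. Without SA 5-Htt+/+ replicate 4 or 7, 1 member had an unadjusted p under 0.05.

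For the libraries labelled 5-Htt+/-, SA against C gave positive values for all 10 genes (median 0.40), from 0.22 for Calml4 to 0.95 for Ttr. Prlr was at 0.85 ± 0.58, with the smallest unadjusted p of 0.151 in edgeR. Over all genes 0.0288% were called and 12.1% had an unadjusted p under 0.05, against 0 of the 10 members.

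SU against C 5-Htt+/- had the highest median of the comparisons with controls. It was 0.85 on the log2 scale, from 0.52 for Kl to 1.58 for Ttr. The interval of Ttr ran from -0.75 to 3.92, and that of Prlr, at 1.08 ± 0.56, from -0.05 to 2.21. Prlr had an unadjusted p of 0.0598 (adjusted p = 0.341 in edgeR's quasi-likelihood test). Its unadjusted p was 0.0317 in the likelihood ratio test and 0.0378 in DESeq2 (adjusted p = 0.295 and 0.205). In this comparison 0.016% of all genes were called and 15.5% had an unadjusted p under 0.05, again with 0 members in the quasi-likelihood test.

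Single libraries moved these values. Without C 5-Htt+/- replicate 5, the control at 575 CPM, the log2 fold change of Ttr in SU against C 5-Htt+/- was 3.95, with an unadjusted p of 0.0049 and an adjusted p of 0.226 in edgeR. The members at an unadjusted p under 0.05 went from 0 to 10 of 10 in that comparison, from 0 to 3 in SA against C 5-Htt+/- and from 0 to 4 in the difference of the SU effect between genotypes, and 0 were called. As the members vary together, these count as 1 departure. The share of all genes at such a p is not given for this fit. With every library kept it was 15.5% in SU against C 5-Htt+/-. The value of Ttr in SA against C 5-Htt+/- without C 5-Htt+/- replicate 5 was 3.33 (adjusted p = 0.365 in edgeR). Without SU 5-Htt+/- replicate 3, 7 or 8, each of low Ttr, 1 member had an unadjusted p under 0.05 in SU against C 5-Htt+/-. Leaving out all 20 libraries of high Ttr, a choice made after their values were seen, gave a median of -0.68 over the members in SU against C 5-Htt+/- and of -0.45 in SA against C 5-Htt+/-. There 5 and 3 members had an unadjusted p under 0.05 in edgeR, and 0 of all 30254 genes of that fit were called in either comparison. As libraries were left out by the level of a member, these values are a description and not a test. For that fit too, no share of all genes at such a p is given.

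SA against SU 5-Htt+/- had negative fold changes for all 10 genes, with a median of -0.42, from -0.64 for Otx2 to -0.21 for Kl. The shares over all genes were 0% called and 3.79% at an unadjusted p under 0.05, with 0 members. Since these comparisons share their control, SA or SU libraries, their values are not independent of one another.

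**Figure D4:**
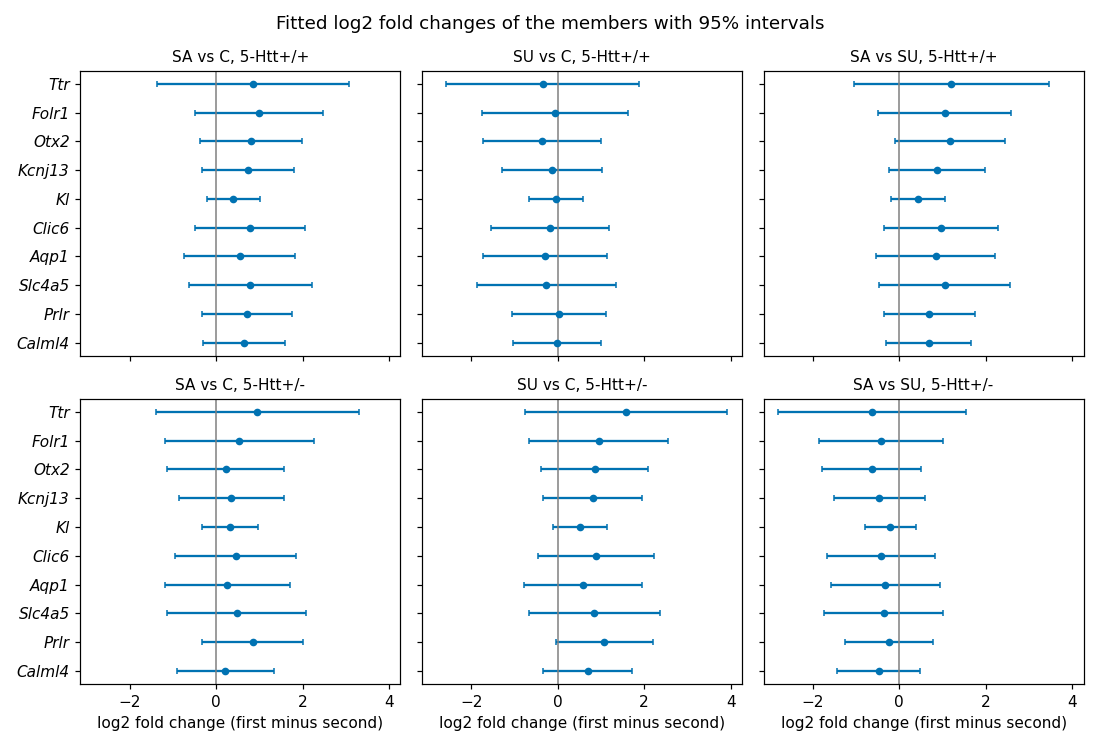
Log2 fold changes (first group minus second) of the 10 genes with 95% intervals from the fit of all 48 libraries, in the 6 comparisons of groups. All 60 intervals include 0. Those of Ttr are the widest and those of Kl the narrowest.

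Between the genotypes, over all groups, the log2 fold changes of 5-Htt+/- against 5-Htt+/+ libraries had a median of -0.05, from -0.19 for Calml4 to 0.08 for Otx2. That of Ttr was -0.13 ± 0.64, an interval from -1.41 to 1.16, and that of Kl -0.02 ± 0.18. Of all genes 0.0224% were called and 5.01% had an unadjusted p under 0.05, and 0 members were in either.

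Whether the effect of stress differed between genotypes was tested as an interaction. For SA against C, the members had a median difference of effects (5-Htt+/- minus 5-Htt+/+) of -0.32 on the log2 scale, with 8 negative and 2 positive, and for SU against C it was 1.03 with all 10 positive. The SU interaction of Ttr was 1.94 ± 1.59. The SA interaction called 0% of all genes with 5.21% at an unadjusted p under 0.05, the SU interaction 0% with 5.65%, and neither held a member.

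The three-way contrast takes SA minus SU in 5-Htt+/+ and subtracts the same quantity in 5-Htt+/- libraries, so that controls drop out of it. All 10 members were positive, with a median of 1.36, from 0.64 for Kl to 1.83 for Ttr. Otx2, at 1.81 ± 0.85 with an interval from 0.10 to 3.53, had an unadjusted p of 0.0388 and an adjusted p of 1.0 in edgeR. Its unadjusted p was 0.0365 in the likelihood ratio test and 0.0478 in DESeq2. Of all genes 0% were called and 3.7% had an unadjusted p under 0.05, beside 1 of 10 members. That count rested on single libraries: it was 9 without SU 5-Htt+/+ replicate 5, 3 without SA 5-Htt+/- replicate 3, 2 without SA 5-Htt+/- replicate 5 and 0 in 17 of the 33 fits that left out 1 library. For these fits the share of all genes at such a p is not given. As the members vary together, 10 signs in 1 direction are not 10 separate observations.

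As a check on Ttr that does not rest on a count model, its mean log2 CPM was compared by two-sided exact permutation tests over the libraries of each pair of groups, a choice made after its 2 ranges had been seen. The smallest p was 0.123, for SA against SU 5-Htt+/+ (difference of means 2.25), followed by 0.135 for SU against C 5-Htt+/- (1.95). A difference of mean log2 CPM is another measure than the fitted log2 fold change, which for Ttr was 1.20 and 1.58 in these comparisons. The other exact permutation p-values were 0.369 to 0.556, and all were 0.405 or more after adjustment over the 6 comparisons.

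Other genes of the epithelium were compared with the members by a list of 30 known choroid plexus genes, all of which were tested. None was called in any of the 10 contrasts (edgeR). Over the contrasts 4 of 300 values (1.33%) had an unadjusted p under 0.05, 4 positive and 0 negative. This lies below the mean share of 6.13% over all genes. In SA against C 5-Htt+/+ all 30 were positive with a median log2 fold change of 0.40, and in SU against C 5-Htt+/+ 24 of 30 were negative (median -0.08). In 5-Htt+/- libraries 21 of 30 were positive for SA against C, 25 for SU against C and 5 for SA against SU. In SA against SU 5-Htt+/+ 28 were positive. The SA interaction had 27 negative, the SU interaction 26 positive, the three-way contrast 29 positive and the genotype contrast 23 negative. Of the 29 genes with enough reads for an r, 12 had r above 0.9 with the mean of the members. The signs of the list are thus not separate observations. In 7 of the 30 every library of high Ttr exceeded every library of low Ttr, whereas over all genes this held for 0.0673%. The list was chosen with earlier results of these data known, so that the 7 are a description. The genes of the highest mean CPM in the list were Slc4a10, Enpp2, Car12 and Slc29a4. Enpp2, which encodes the secreted enzyme autotaxin, was at 105 to 158 CPM in the 28 libraries of low Ttr and at 231 to 699 CPM in the other 20. Slc4a10, a bicarbonate transporter that neurons also express, overlapped between the sets (164 to 316 and 239 to 327 CPM).

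By Pearson's r of log2 CPM with the mean of the members over 48 libraries, the 10 most similar of 23167 genes that were no members were F5, Enpp2, Cldn2, Kcne2, Tmem72, Gm29155, 1500015O10Rik, Prr32, Wdr86 and Col9a3. Of these, F5, Enpp2, Cldn2, Kcne2, Tmem72 and 1500015O10Rik are on the list of 30 known genes. That list was chosen with earlier results of these data known, so that the overlap is a description. As the 2 ranges dominate such a ranking, r is given within each range. Within the 20 libraries of high Ttr it was 0.842 (Col9a3) to 0.985 (Enpp2), and within the other 28 it was 0.277 (Tmem72) to 0.775 (F5). F5, coagulation factor V, was at 0.577 to 1.92 CPM in the libraries of low Ttr and at 4.53 to 19.1 CPM in those of high Ttr. Cldn2, a claudin of the leaky tight junctions of this epithelium, was at 0.297 to 0.767 CPM and at 2.70 to 9.46 CPM.

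In the lists of pathway partners of single members, no gene separated the sets of low and high Ttr. Over all genes 0.0673% did, so that 0 in a short list is near that share. Among 11 genes of thyroid hormone and retinol handling, which receive what transthyretin carries, 0 were called in any contrast (edgeR) and 0 separated the sets. At an unadjusted p under 0.05 were 10 of 110 values (9.09%), 2 positive and 8 negative. Thra, the most abundant of them, was at 470 to 757 CPM in the 28 libraries and at 496 to 651 CPM in the 20. The 10 genes of folate uptake and use, the 7 of prolactin signalling and the 7 of klotho and FGF signalling also had 0 called genes and 0 that separated the sets. At an unadjusted p under 0.05 over the 10 contrasts were 7 of 100 folate values (7.0%), 9 of 70 prolactin values (12.9%) and 9 of 70 klotho and FGF values (12.9%). Over all genes the mean share was 6.13%, and the values of a list are not independent of each other. Mthfd1, Jak2 and Fgfr2 were the most abundant of these lists, and Fgfr2 was at 1081 to 1171 CPM and at 1105 to 1180 CPM. Of 12 genes of fluid secretion 0 were called, 0 had an unadjusted p under 0.05 in any contrast and 1, Kcne2, a potassium channel subunit that is also in the list of 30, separated the sets.

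**Figure D5:**
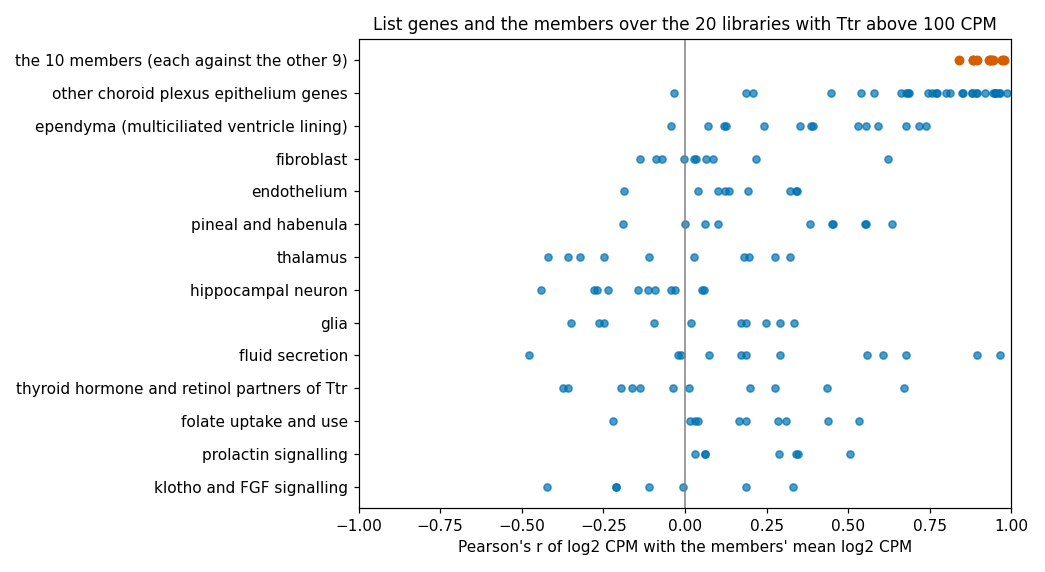
Pearson's r of log2 CPM with the mean of the 10 members over the 20 libraries of high Ttr, 1 point per gene and 1 row per list, and for each member against the mean of the other 9. Members lie between 0.839 and 0.977 and many of the 30 other choroid plexus genes beside them, whereas the genes of thalamus, hippocampal neuron and glia scatter around 0.

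Cells that border the choroid plexus were followed by marker lists whose mean log2 CPM was set against that of the members within each set of libraries. As the members were chosen with results known, r is given with no p. The list of 14 ependymal genes, of the ciliated lining of the ventricles, had r = 0.628 (Spearman's rho 0.522) over the 20 libraries of high Ttr and r = 0.670 (rho 0.630) over the other 28. Without the 2 libraries farthest from the median, r was 0.534 and 0.594. The sum of these genes ran from 24.5 to 47.6 CPM in the 28 libraries and from 30.9 to 51.8 CPM in the 20, so that the sets overlapped. In 5-Htt+/+ libraries the ependymal sum was 29.8 to 38.3 CPM for C, 28.6 to 49.1 CPM for SA and 25.2 to 44.2 CPM for SU. In 5-Htt+/- libraries it was 29.7 to 42.4 CPM for C, 24.5 to 38.5 CPM for SA and 24.5 to 51.8 CPM for SU. Of its most abundant genes Foxj1 and Dnah6 followed the members and Rarres2 and Spag6 did so little or not. Between groups the list did not always go with the members. In SA against C 5-Htt+/-, where all 10 members were positive, 12 of 14 ependymal genes were negative with a median of -0.28. At an unadjusted p under 0.05 in edgeR were 5 negative and 1 positive, where 12.1% of all genes had such a p. In the SA interaction 12 were negative, 7 of them at an unadjusted p under 0.05 (edgeR), where 5.21% of all genes had such a p. The values of this list are not independent of each other. The part of these genes in the levels of the members was not tested.

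A list of 10 measured pineal and habenular genes had r = 0.733 (rho 0.683) over the 20 libraries and 0.437 (rho 0.213) over the 28, and its sum overlapped fully (56.3 to 76.2 and 55.2 to 74.8 CPM). Fibroblast genes had r = 0.0687 over the 20 libraries and 0.531 over the 28. The values were 0.265 and 0.389 for endothelial genes, -0.0086 and 0.494 for glial genes, -0.0999 and 0.251 for thalamic genes and -0.252 and -0.106 for hippocampal neuron genes. Total count had r = 0.290 and -0.123 and the share of mitochondrial counts 0.131 and -0.106. No gene of these 7 lists of other cells was at 0 in all libraries, and none was called in any contrast (edgeR). No gene of them separated the 2 sets, where 0.0673% of all genes did. The share of values at an unadjusted p under 0.05 over the 10 contrasts, 6.13% for all genes, was 16.4% for the ependymal list (8 positive and 15 negative of 140). In the glial list 12 of 100 such values passed, 0 positive and 12 negative. In the pineal and habenular list 10 of 100 passed (8 positive and 2 negative) and in the thalamic list 10 of 100 (6 positive and 4 negative). The fibroblast (5.0%), endothelial (5.56%) and hippocampal neuron lists (1.82%) were lower. The hippocampal neuron genes, which define the labelled tissue, summed to 1667 to 2266 CPM in the libraries of low Ttr and to 1756 to 2203 CPM in those of high Ttr.

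The library with the most Ttr, SA 5-Htt+/+ replicate 8, also stood out for hormone genes of the pituitary, which were named after their values were seen. Prl, the gene of prolactin, was at 44.9 CPM there (1114 reads) and at 0 to 8.04 CPM in the other 47 libraries, with a median of 0.0477. Gh, of growth hormone, was at 11.9 CPM against at most 3.83 in the others, and Pomc at 5.57 CPM against at most 1.14. The same library had the highest Tph1, at 3.79 CPM against at most 2.40, and the highest Crx, at 1.41 CPM against at most 1.11, both genes of the pineal gland. Without it, the log2 fold change of Ttr in SA against C 5-Htt+/+ was 0.50 in place of 0.85.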

How the data were processed

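Per the labels and the file, the authors deposited gene-wise read counts as whole numbers for 48 hippocampal libraries, with no normalisation. STAR, Salmon and tximport are given in their paper, whereas HTSeq and the build GRCm38.p5 stand beside STAR in the submitters' processing notes. Versions of the alignment and counting tools, and strand use, were not given in the sources used here. Reads of a gene and its antisense partner may therefore be mixed.

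The test used was the quasi-likelihood F test of edgeR 4.0.16 (R 4.3.3) over all 48 libraries with 1 mean per group, upper quartile scaling and Benjamini-Hochberg adjustment over the 31208 genes that had 5 or more reads in 3 or more libraries. The scripts were tested on simulated data. Depth ran from 16488405 to 38213754 counts per library, and intervals are those of the fit. Log2 CPM used a prior count of 2. Fold changes are first group minus second.

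The members and lists were chosen with earlier results of these data known. From each list the genes named were those of highest mean CPM, at most 4, and likeness was ranked among genes with 20 or more reads in 3 or more libraries. Because the members were so chosen, the permutation p planned for relations with their mean is not given. Those relations were computed within the 2 ranges of Ttr, since the libraries fall into separate sets. Promoter windows are from RefSeq (GRCm38.p6), with none for Ttr, Folr1 and Clic6. Alternatives were the likelihood ratio test, DESeq2 1.42.0, other scaling (TMM, relative log expression) and filters, a replicate block, smaller fits of the groups compared, and leaving out each library.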

Additional observations from a re-analysis of the deposited data

Results flagged for a closer look

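Within each group, the highest or the lowest library was examined for a gap from the others that exceeds Dixon's 95% critical value, on log2 CPM, for 60 combinations of member and group. Chance alone flags about 1 in 20 groups. In all, 7 combinations stood out, and all 7 were the same library, C 5-Htt+/- replicate 5, the only one of 7 controls with high Ttr. There Ttr was at 575 CPM, where the next library of the group was at 25.0. Folr1 was at 3.89 CPM (next 0.557), Otx2 at 4.54 (next 1.22) and Kl at 46.6 (next 19.5). Clic6 was at 18.4 CPM (next 3.97), Aqp1 at 4.71 (next 0.658) and Slc4a5 at 7.60 (next 0.860). As these genes vary together, the 7 count as 1 departure and not as 7, and the value of that library lies inside the range of the high libraries of other groups. No effect of SA or SU on a member differed between the genotypes at an adjusted p under 0.05 in edgeR.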

How the results depend on the processing

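No member was called in any contrast under any alternative, and the smallest adjusted p over 3296 values was 0.205, for Prlr in SU against C 5-Htt+/- by DESeq2. Without the 20 libraries with Ttr above 100 CPM, an alternative chosen after seeing the data that leaves out 6 of 9 SU and 1 of 7 C 5-Htt+/- libraries, the median log2 fold change of the members in SU against C 5-Htt+/- was -0.68 and the SU interaction -0.46. The medians of SA against C (-0.45) and SA against SU 5-Htt+/- (0.16) also turned, and those of the three-way contrast and SA against C 5-Htt+/+ came to 0.14 and 0.08. Of 100 fold changes of members, 46 changed sign there, as did 171 of 2400 with 1 library left out and 6 of 796 in the other settings. None of those had been called. With 1 library left out the median of the members ran from 0.53 to 1.79 in SU against C 5-Htt+/-, from 0.43 to 1.27 in SA against C 5-Htt+/+, from 0.01 to 1.33 in SA against C 5-Htt+/- and from -1.03 to 0.39 in SU against C 5-Htt+/+. It ran from 0.60 to 1.75 in SA against SU 5-Htt+/+, from -0.83 to -0.14 in SA against SU 5-Htt+/-, from 1.04 to 2.13 in the three-way contrast and from 0.45 to 2.06 in the SU interaction. For the SA interaction (-0.89 to 0.58) and the genotype contrast (-0.36 to 0.26) the range included 0. Members at an unadjusted p under 0.05 went up to 10 of 10 in SU against C 5-Htt+/- without C 5-Htt+/- replicate 5 and in SA against SU 5-Htt+/+ without SU 5-Htt+/+ replicate 5. Without the 20 libraries of high Ttr they were 5 in SU against C and 3 in SA against C 5-Htt+/- (edgeR). There libraries were left out by the level of a member, so that these 2 counts are a description and not a test. As the members vary together, each such count is 1 departure, and the shares of all genes at such a p are not given for these fits. Equal replicate numbers did not pair the libraries (median r of their deviations 0.0043, and -0.0027 for unequal numbers), and the replicate block gave 0 called members and a median of 0.76 in SU against C 5-Htt+/-. Ranking by Spearman's rho kept 6 of the 10 most similar genes, and subtracting group means kept 9. For Folr1, Aqp1 and Slc4a5, which had as few as 1 to 4 reads in a library, depth limits what can be said below 1 CPM.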
